A study of Arabidopsis thaliana with 12 samples.

Results

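The comparison of ago4-3 with Col-0 on control medium rests on 4 of the 12 libraries of a study of germinating Arabidopsis thaliana seeds. They are the 2 libraries labelled ago4-3 control and the 2 labelled Col-0 control, chosen by these labels and not by any measured value. Col-0 is the wild-type ecotype, and ago4-3 is a line named for an allele of AGO4. The labels do not say what the allele is, how the line was made or whether it was backcrossed. All 4 libraries are polyadenylated RNA of whole germinating seeds on MS 1X medium without added salt, at 21 °C with 16 h of light. The same genotypes in 100 mM NaCl (4 further libraries) and the second mutant line, ago4-2, on control medium (2 libraries) serve below as points of reference.

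AGO4 is an Argonaute protein. It binds short interfering RNAs, pairs with nascent transcripts made by a plant-specific RNA polymerase, and recruits the methyltransferase that methylates the matching DNA. This pathway, RNA-directed DNA methylation, is known for keeping transposons and some genes beside them silent. ROS1, a DNA glycosylase, removes methylation again, and is known as a gene whose transcript depends on methylation near its own promoter.

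The 4 libraries held 47517007 and 21741182 counts in Col-0 and 27669136 and 19322519 in ago4-3. Levels are given as CPM, the counts scaled to library size after TMM adjustment. Changes are given on the log2 scale as ago4-3 minus Col-0 with the standard error, from an edgeR quasi-likelihood test with Benjamini-Hochberg adjustment over 17751 genes. A gene is called at an adjusted p under 0.05. The submitters call the 2 libraries of a group biological replicates without saying whether the seeds were grown separately. The p-values cover no more than the spread between libraries of a group, which the fit estimates from all 12 libraries in 6 groups. The ago4-2 control libraries, outside this comparison, enter that estimate and differed most from each other. Their chi-square per degree of freedom against counting noise was 153.6, beside 14.1 in Col-0 control and 18.7 in ago4-3 control. Whole seeds were sequenced, so fewer cells of a type and less RNA per cell cannot be told apart. Transcripts of oil mobilisation, the process that feeds the germinating seedling, were abundant in all 4 libraries (summed level 16990 to 19370 CPM), and seed storage transcripts were present (326.5 to 520.4 CPM), as the label of germinating seeds implies. Reads of mitochondrial and plastid genes took 0.440% and 0.198% of the counts in Col-0 and 1.40% and 0.933% in ago4-3. On control medium this share was higher in both ago4-3 libraries than in both of Col-0. It also varied within groups, at 2.04% and 0.20% in ago4-2 control. In NaCl it was 0.255% and 0.622% in Col-0 and 0.102% and 0.585% in ago4-3. The part of this share in the results was not tested.

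AGO4 (AT2G27040; TAIR10.1 chromosome 2, 11536502 to 11542391, minus strand) was nearly lost. Its level was 44.6 and 46.8 CPM in the Col-0 libraries and 1.35 and 1.15 in ago4-3, where 60 counts in all remained. The groups lie far apart, at a log2 fold change of −5.17 ± 0.18 (edgeR adjusted p = 2.38e-10). In ago4-2 the level was 40.4 and 49.1 CPM, around that of Col-0.

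In all, 151 genes were higher (0.851% of the genes tested) and 143 lower (0.806%) in ago4-3 than in Col-0, together 1.66%. Rises reached further than falls. Of the called genes, 35 rises and 29 falls had a log2 size of at least 2, and 26 rises and 7 falls of at least 3. The median log2 fold change was 0.88 among the rises and −1.17 among the falls, against −0.01 over all genes tested. The counts depended on single libraries. Without Col-0 control replicate 1 they were 47 higher and 51 lower, without Col-0 control replicate 2 47 and 45, and without ago4-3 control replicate 2 56 and 43, whereas without ago4-3 control replicate 1 they were 160 and 146. In every one of these 4 fits, 39 of the rises and 28 of the falls were called, which is 0.377% of the genes tested.

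**Figure D1:**
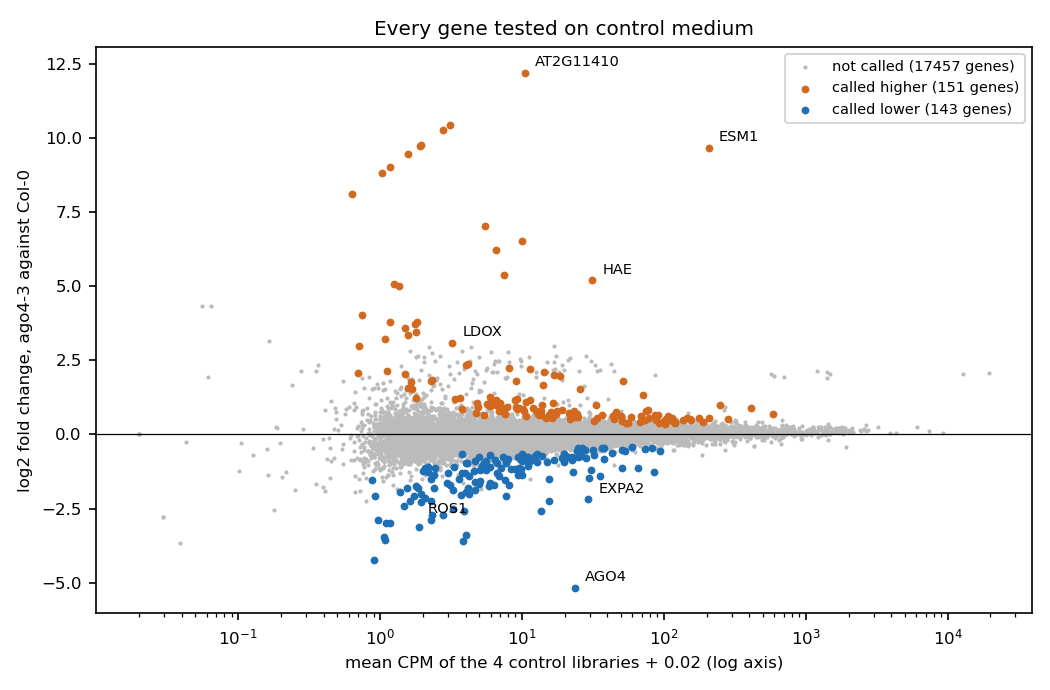
Change on the log2 scale, ago4-3 minus Col-0, on control medium (vertical axis) against the mean CPM of the 4 libraries plus 0.02 (horizontal log axis), 1 point per gene. The 151 genes called higher are orange and the 143 called lower blue; ESM1 combines a log2 fold change of 9.68 with a high level, and AGO4 is the lowest called point at −5.17.

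Among the rises stood a set of genes that were silent or close to silent in Col-0. For 9 called genes, neither Col-0 library held a single count. The highest of these in ago4-3 was AT2G11410, annotated as a pseudogene (chromosome 2, 4543932 to 4547916), with 19.1 and 22.6 CPM in ago4-3 against 0 and 0 in Col-0. Taking 3 counts per Col-0 library as the floor, it was at least 229-fold higher. Most low counts were even numbers, and if both reads of a pair were counted, this floor is too low and this bound and those that follow are overstated. Its edgeR adjusted p was 1.84e-08. The ago4-2 libraries held 2.91 and 4.92 CPM of it, between the levels of the other genotypes.

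AT3G28290 and AT3G28300, a tandem pair of genes named AT14A for a membrane protein, showed the same picture. AT3G28300 was at 5.64 and 6.72 CPM in ago4-3 and at 0 in both Col-0 libraries, at least 67.9-fold higher. AT3G28290 was at 4.57 and 6.40 CPM against 0, at least 60.4-fold higher. The annotated bodies of the pair are identical over all 1961 bases, as are the 250 bases upstream, so reads cannot be assigned to either copy and the pair is best read as a single signal. Their neighbour AT3G28310, named after its values were seen, rose as well, from 0.0768 and 0.0828 CPM to 1.17 and 1.57 (log2 fold change 4.03, edgeR adjusted p = 0.00592). That call was lost without Col-0 control replicate 1 (adjusted p = 0.146), Col-0 control replicate 2 (0.0611) or ago4-3 control replicate 2 (0.0533).

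A second group of copies, also named after the values were seen, lies on chromosome 1. AT1G24851, AT1G25025, AT1G25112 and AT1G25180 rose by log2 fold changes of 3.46 to 3.81, and all were called in each fit that left out 1 library. AT1G25025 was at 0.365 and 0.166 CPM in Col-0 and at 2.62 and 3.94 in ago4-3. Its 777 bases match AT1G25112 and AT1G25180 without a mismatch and AT1G24851 with 6 mismatches, and the 250 bases upstream are the same in all 4 genes. The 4 rises are therefore not independent. The upstream sequence of 1 copy of each set is given, as the copies of a set share these 250 bases. Each is the 250 bases before the annotated start in the TAIR10.1 genome, 5′ to 3′ on the plus strand, at chr1:8800558-8800807 for AT1G25025 and chr3:10547191-10547440 for AT3G28290.
AT1G25025: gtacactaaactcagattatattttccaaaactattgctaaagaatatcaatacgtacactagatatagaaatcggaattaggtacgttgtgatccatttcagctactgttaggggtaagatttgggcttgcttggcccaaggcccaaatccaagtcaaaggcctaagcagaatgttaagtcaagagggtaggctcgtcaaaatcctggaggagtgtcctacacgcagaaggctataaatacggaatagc
AT3G28290: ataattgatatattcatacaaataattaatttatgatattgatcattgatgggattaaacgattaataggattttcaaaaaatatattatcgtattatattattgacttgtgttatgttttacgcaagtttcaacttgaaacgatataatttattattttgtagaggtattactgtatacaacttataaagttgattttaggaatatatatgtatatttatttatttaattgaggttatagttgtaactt

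AT1G59930 and AT1G59920, neighbouring genes for MADS-box proteins on chromosome 1, were also read only in the mutant. MADS-box proteins are DNA-binding transcription factors. AT1G59930 was at 3.97 and 3.57 CPM in ago4-3 and at 0 in both Col-0 libraries, at least 41.5-fold higher. AT1G59920 was at 2.41 and 2.20 CPM against 0, at least 25.4-fold higher. Neither gene had a count in the ago4-2 libraries. AT3G32030, annotated as a terpenoid cyclase, was at 3.90 and 3.83 CPM in ago4-3 and at 0 in Col-0, at least 42.5-fold higher, and at 0 and 0.0679 CPM in ago4-2. The pseudogene AT4G01975 (at least 34.1-fold higher) and AT2G19000, of unknown function (at least 22.2-fold higher), complete the genes of this kind among the 15 largest rises. AT4G01975 was at 2.26 and 2.34 CPM in ago4-2, beside 2.59 and 3.62 in ago4-3, whereas AT2G19000 was at 0 there.

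ESM1 (AT3G14210; chromosome 3, 4729399 to 4731847, plus strand) gave the largest change at a high level. ESM1 encodes a lipase-like protein known to shift the breakdown of glucosinolates, the mustard oil precursors, towards isothiocyanates and away from nitriles. Its level was 0.499 and 0.497 CPM in Col-0 and 382.5 and 441.4 in ago4-3. The log2 fold change was 9.68 ± 0.23 (edgeR adjusted p = 1.58e-12), the smallest p of any gene in this comparison. In ago4-2 the level was 71.0 and 50.5 CPM.

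HAE (AT4G28490), the receptor kinase HAESA known for its part in the shedding of floral organs, rose from 1.61 and 1.66 CPM to 68.6 and 52.8. Its log2 fold change was 5.22 ± 0.24 (edgeR adjusted p = 6.24e-09). The ago4-2 libraries, at 1.55 and 1.19 CPM, were at the Col-0 level. AT2G21100, annotated as a dirigent-like disease resistance-responsive protein, rose from 0.192 and 0.124 CPM to 12.1 and 13.8 (log2 fold change 6.21), and stood higher still in ago4-2, at 31.5 and 24.8 CPM. The largest rises thus fall into genes that were also above Col-0 in ago4-2, such as ESM1 and AT2G21100, and genes at or near the Col-0 level there, such as HAE and AT1G59930. Both mutants are set against the same Col-0 libraries, so a rise in both is not independent.

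The other genes among the 15 largest rises, counted among genes with a mean of at least 2 CPM in ago4-3 that were called with each library left out, were pseudogenes and a non-coding RNA of unknown function. AT5G35935 went from 0.230 and 0.166 CPM to 22.5 and 16.9, AT4G08093 from 0.0768 and 0.0828 to 11.6 and 10.3, AT3G30833 from 0.0384 and 0.124 to 2.69 and 2.10, and the non-coding AT2G01422 from 0.346 and 0.331 to 12.5 and 16.5. The rule for this ranking also required that the libraries of the groups not overlap. All 151 rises called met this, but so did genes that were not called, such as the Argonaute gene AGO6. Pseudogenes and non-coding RNAs made up 3.05% of the 17560 genes tested that have an annotation and 29.4% of their rises of at least 2 on the log2 scale (10 of 34), against 2 of the 29 falls of that size. The other 24 of these rises were protein-coding.

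**Figure D2:**
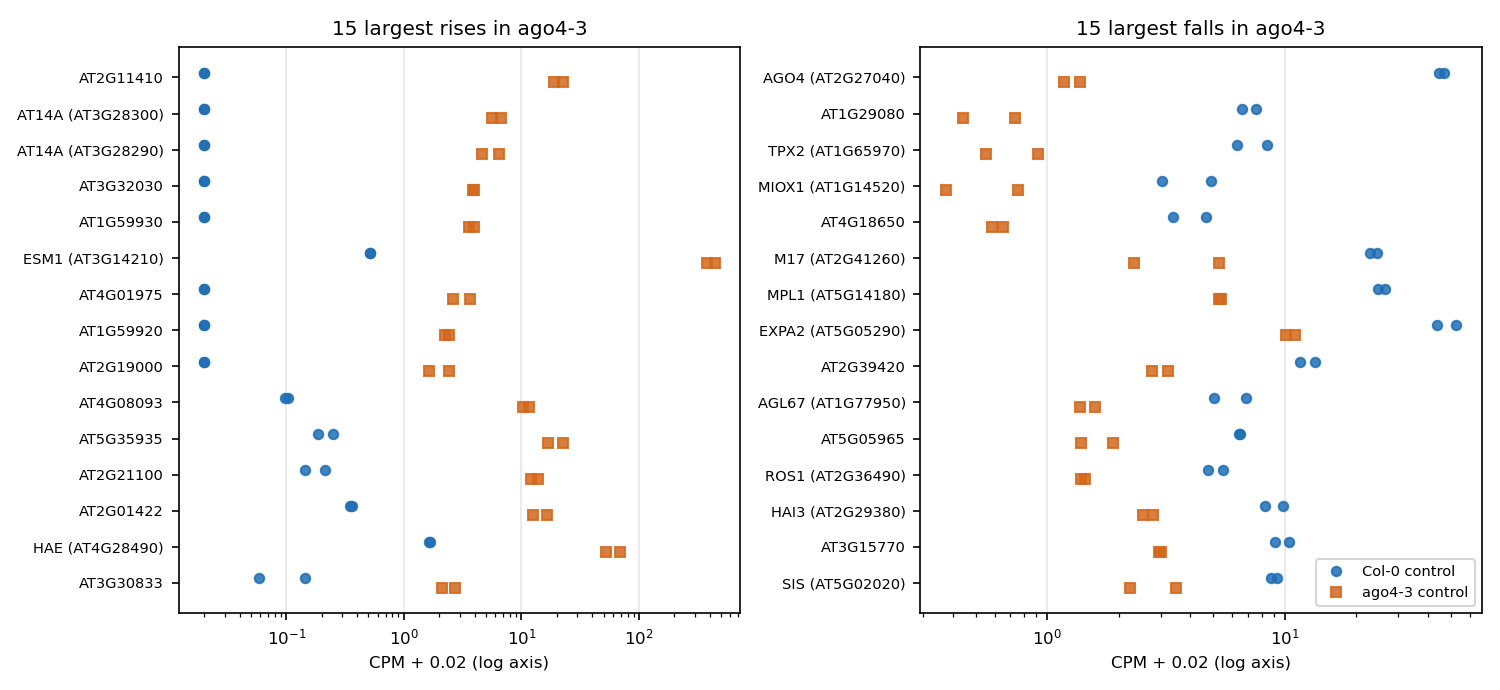
CPM plus 0.02 in each of the 4 libraries (log axis) for the 15 largest rises (left) and the 15 largest falls (right) under the naming rule; circles are Col-0 and squares ago4-3. In every row both libraries of a genotype lie on the same side, as the rule required. In both Col-0 libraries, 8 of the rises sit at 0 CPM, drawn at 0.02.

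The deposited table of this comparison also holds 415 genes that lack a row in some other table and so were outside the fit over 12 libraries. A fit of the 4 libraries alone, on all 18044 genes of that table, called 3.46% of them, with 24 of the 415 higher and 11 lower. Of these 35, 6 were plastid and 3 mitochondrial genes. The genes of this kind named here were picked after their values were seen. AT2G04135, AT3G32917, AT5G28664, AT5G28076 and AT4G17587, all pseudogenes, and AT2G11405 had 0 counts in both Col-0 libraries. AT2G04135, for example, had 72 and 41 counts in ago4-3. Running the other way, the chitinase gene AT2G43620 had 106 and 58 counts in Col-0 and 0 in both ago4-3 libraries.

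ROS1 (AT2G36490, listed as DML1 in the annotation; chromosome 2, 15307907 to 15314807, minus strand) was lower in ago4-3. Its level was 5.49 and 4.72 CPM in Col-0 and 1.42 and 1.36 in ago4-3. Both mutant libraries lie below both of Col-0, at a log2 fold change of −1.88 ± 0.22 (edgeR adjusted p = 2.44e-04), and the call held with each library left out (highest adjusted p = 0.00722). In ago4-2 the level was 4.65 and 4.96 CPM, as in Col-0. The other demethylase measured, DME, was at 24.3 and 23.0 CPM in Col-0 and 23.3 and 22.6 in ago4-3 (log2 fold change −0.05, adjusted p = 0.917).

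The 250 bases before the annotated ROS1 start (TAIR10.1 chr2:15314808-15315057, read 5′ to 3′ on the minus strand) are given. ROS1 was chosen because its transcript is known to depend on methylation near its own promoter. Whether the methylated stretch lies within these 250 bases was not examined. None of the 4 motifs searched here (see the promoters of DFR and LDOX for their letters) occurs in this window. Methylation was not measured in these libraries.
ROS1: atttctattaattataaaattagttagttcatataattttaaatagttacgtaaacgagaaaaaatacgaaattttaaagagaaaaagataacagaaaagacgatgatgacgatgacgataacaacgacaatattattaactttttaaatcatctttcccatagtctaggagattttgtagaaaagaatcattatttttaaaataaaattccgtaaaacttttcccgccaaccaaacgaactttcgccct

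Apart from AGO4 itself, none of the other genes of the methylation machinery was called (1 lower and 0 higher of 34 measured, median log2 fold change −0.05). AGO6, an Argonaute of the same clade as AGO4, was at 2.99 and 3.31 CPM in Col-0 and 5.32 and 4.98 in ago4-3, a log2 fold change of 0.72 ± 0.21 that did not pass (edgeR adjusted p = 0.117). NRPD1, the largest subunit of RNA polymerase IV, which makes the precursors of the short RNAs, was at 3.95 and 4.14 CPM in Col-0 and 2.62 and 1.89 in ago4-3 (−0.82, adjusted p = 0.143). The 9 other Argonaute, Dicer and related genes had 0 calls (median −0.09), 2 of them at a positive log2 fold change. At an unadjusted p under 0.05, 1 of these 9 passed with edgeR, and DESeq2 also called 0.

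Of 6 measured genes known as silencing targets, ROS1 was the only call, and it was a fall, where 1.66% of all genes tested were called. The resistance genes RPP5 (−0.54), RPP4 (−0.89) and SNC1 (−0.17) and the stomatal regulator EPF2 (0.21) did not pass. The annotation notes 29 genes other than protein-coding ones as transposons or retrotransposons. Of these, 10 were measured, 9 of them of the Sadhu family of short non-autonomous retroelements. Pseudogenes that rose, such as AT2G11410 and AT5G35935, carry no such note, and whether they derive from transposons was not tested. Of the 10 measured elements, 1 was called. SADHU3-2 (AT3G42658) was lower, at 1.57 and 1.82 CPM in Col-0 and 0.0709 and 0.105 in ago4-3. Its log2 fold change was −4.24 ± 0.67 (edgeR adjusted p = 0.00359), and 4 counts in all remained in ago4-3. That call was lost without ago4-3 control replicate 1 (adjusted p = 0.0508). The abundant SADHU1-1 was at 138.8 and 116.5 CPM in Col-0 and 127.6 and 134.5 in ago4-3, within the spread of the libraries.

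Several genes of the anthocyanin pathway rose in ago4-3. Anthocyanins are the purple flavonoid pigments made by a chain of enzymes, late steps of which are DFR and LDOX. LDOX (AT4G22880) was at 0.729 and 0.580 CPM in Col-0 and at 6.34 and 5.14 in ago4-3, a log2 fold change of 3.10 ± 0.30 (edgeR adjusted p = 2.86e-05). DFR (AT5G42800) was at 0.230 and 0.331 CPM against 2.69 and 2.94, a log2 fold change of 3.37 ± 0.45 (adjusted p = 7.09e-04). For both, the ago4-3 libraries stand well clear of Col-0, and both calls held with each library left out.

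MYB90 (PAP2), a transcription factor that switches on anthocyanin genes, rose from 6.78 and 7.49 CPM to 14.6 and 16.9 (log2 fold change 1.15, edgeR adjusted p = 0.00736). PAL2, which feeds phenylalanine into the pathway, rose from 11.7 and 14.4 CPM to 19.4 and 20.8 (0.63, adjusted p = 0.0292). MYB90 kept its call only without ago4-3 control replicate 1 (adjusted p = 0.0212) and had adjusted p-values of 0.0728 to 0.141 with each other library left out, while PAL2 had 0.0560 to 0.376. Of 16 measured genes of the flavonoid and phenylpropanoid pathway, 4 were higher, where 0.851% of all genes tested were, and 0 lower, 15 had a positive log2 fold change, and the median was 0.30. Named after its values were seen, GSTF12, the glutathione transferase needed to bring anthocyanins to the vacuole, rose from 0.902 and 1.82 CPM to 5.88 and 7.45 (2.35, adjusted p = 0.00467), a call lost without Col-0 control replicate 1 (adjusted p = 0.123) and without ago4-3 control replicate 2 (0.0508). AT5MAT, an anthocyanin acyltransferase outside the 12-library fit, had 0 and 10 counts in Col-0 and 60 and 35 in ago4-3 (3.77 in the 4-library fit, adjusted p = 0.0188). In ago4-2 on control medium, LDOX (2.15), DFR (1.97) and GSTF12 (1.48) were called higher than the same Col-0 libraries as well. MYB90 (0.19) and PAL2 (0.01) did not pass there.

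The 250 bases before DFR (TAIR10.1 chr5:17166033-17166282) and LDOX (chr4:12006210-12006459), both read 5′ to 3′ on the minus strand, are given as promoters of enzymes of the pathway that both rose. Capitals mark matches to 4 motifs searched on both strands: the G-box CACGTG, the W-box TTGACC, the evening element AAATATCT and the drought-responsive element ACCGAC. No match printed overlaps another. DFR holds a G-box, and LDOX holds W-boxes.
DFR: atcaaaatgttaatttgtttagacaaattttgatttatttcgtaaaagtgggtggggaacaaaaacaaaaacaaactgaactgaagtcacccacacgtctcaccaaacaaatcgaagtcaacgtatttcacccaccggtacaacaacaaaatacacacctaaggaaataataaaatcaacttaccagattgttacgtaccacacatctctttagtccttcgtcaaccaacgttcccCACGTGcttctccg
LDOX: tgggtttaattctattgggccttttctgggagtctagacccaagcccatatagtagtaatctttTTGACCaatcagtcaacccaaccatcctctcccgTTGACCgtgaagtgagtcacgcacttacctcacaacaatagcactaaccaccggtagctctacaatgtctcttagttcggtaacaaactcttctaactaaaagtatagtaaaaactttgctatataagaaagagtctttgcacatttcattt
Over all 17560 nuclear genes tested that have a position, 7.80% of the 250-base windows hold a G-box, compared with 11.3% of the genes called higher (17 of 150) and 11.2% of those called lower (16 of 143). The W-box stands in 11.9% of all windows, 12% of those of the higher genes and 5.59% of those of the lower genes. The evening element stands in 4.76% of all windows, 4.0% for higher and 7.69% for lower genes, and the drought-responsive element in 5.45%, 4.67% and 6.99%. These shares are descriptions of letters in a window.

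ICS1 (AT1G74710, listed as EDS16) is the enzyme known for the main route to the defence hormone salicylic acid. It was the only call among 11 measured salicylic acid and defence genes, where 1.66% of all genes tested were called. It rose from 7.52 and 7.58 CPM to 28.5 and 30.7, a log2 fold change of 1.97 ± 0.17 (edgeR adjusted p = 7.86e-06). In ago4-2 on control medium ICS1 was at 3.75 and 5.70 CPM and was called lower than Col-0 (−0.64, edgeR adjusted p = 0.0442). In ago4-3, the list's median was −0.22, and 3 of the 11 members had a positive log2 fold change, so the rise of ICS1 was not shared by the rest. The glutathione transferase GSTF7, for example, was at 5.87 and 10.2 CPM in Col-0 and 2.16 and 2.26 in ago4-3 (−1.85, adjusted p = 0.0711), although the fit of the 4 libraries alone called it (0.00338), as did the fit without organelle genes (0.0348).

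Some nuclear genes of photosynthesis rose by small amounts. Of 47 measured genes for photosystems, Rubisco and chlorophyll synthesis, 6 were higher, where 0.851% of all genes tested were, and 0 lower, 46 had a positive log2 fold change and the median was 0.33. LHCB1.3 (AT1G29930), a light-harvesting protein, was at 34.4 and 33.0 CPM in Col-0 and 53.5 and 61.3 in ago4-3 (0.76 ± 0.11, edgeR adjusted p = 0.00182), and was the only 1 of the 6 called in every fit that left out a library. The photosystem I subunits PSAH2 (1.19) and PSAG (1.01) and the photosystem II subunit PSBO2 (0.56) rose, and so did RCA, the activase of Rubisco (0.42) and LHCB1.2 (0.74), which shares much sequence with LHCB1.3. Of these 5, PSBO2 and PSAG were called without ago4-3 control replicate 1 (adjusted p = 0.0276 and 0.0380), and no other of their fits with a library left out passed (adjusted p = 0.0696 to 0.418). In ago4-2 on control medium, LHCB1.3 (0.56), PSAH2 (1.19) and PSBO2 (0.56) were called higher than the same Col-0 libraries as well. PSAG did not pass there (0.58). Transcripts of the organelle genomes were also higher in ago4-3 than in Col-0. All 82 plastid genes and 35 of 37 mitochondrial genes had a positive log2 fold change, with medians of 2.20 and 1.37, yet edgeR called 1 mitochondrial and 0 plastid genes (75 of the plastid genes at an unadjusted p under 0.05, and 0 called by DESeq2). The fit of the 4 libraries alone, in which the spread comes from these libraries only, called 84 of 89 plastid and 28 of 44 mitochondrial genes, all higher. Their summed level was 4011 and 1786 CPM in Col-0 and 13750 and 9456 in ago4-3. Their part in the rise of the nuclear genes was not tested. With the organelle genes left out of the fit, 7 photosynthesis genes were higher and 0 lower, and the median was 0.34.

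Of 19 measured cell cycle and DNA replication genes, 2 were higher, where 0.851% of all genes tested were, and 0 lower, with 18 at a positive log2 fold change and a median of 0.21. TSO2, a ribonucleotide reductase subunit that supplies DNA building blocks, went from 159.5 and 161.2 CPM to 210.4 and 222.8 (0.43, edgeR adjusted p = 0.0234), and the mitotic cyclin CYCB1;2 (AT5G06150) from 8.14 and 8.45 to 12.9 and 12.8 (0.63, adjusted p = 0.0427). Neither call held in any fit that left out 1 of the 4 libraries (adjusted p = 0.0505 to 0.329), and that of CYCB1;2 was lost with upper-quartile scaling (adjusted p = 0.0553).

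Among falls from a mean of at least 2 CPM that were called with each library left out, the largest after AGO4 was that of AT1G29080, a papain-family cysteine protease, at 6.58 and 7.58 CPM in Col-0 and 0.709 and 0.420 in ago4-3 (log2 fold change −3.59 ± 0.34, edgeR adjusted p = 2.49e-05). TPX2 (AT1G65970), a thioredoxin-dependent peroxidase, was at 6.30 and 8.36 CPM against 0.532 and 0.892 (−3.40 ± 0.36). MIOX1, which oxidises inositol towards cell wall sugars, was at 3.03 and 4.89 CPM against 0.354 and 0.735 (−2.90). Selection for this ranking also required that the libraries of the groups not overlap. All 143 falls called met this, but so did genes that were not called, such as NRPD1.

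EXPA2 (AT5G05290), an expansin known to be switched on by gibberellin in germinating seeds, where it loosens walls of the endosperm, fell at a substantial level. It was at 43.7 and 52.8 CPM in Col-0 and 10.1 and 11.0 in ago4-3, a log2 fold change of −2.19 ± 0.16 (edgeR adjusted p = 2.25e-06). In ago4-2 it stood at 88.5 and 68.2 CPM, above both other genotypes. The xyloglucan enzyme XTH31 also fell (46.6 and 50.4 CPM against 24.1 and 31.2; −0.81, adjusted p = 0.0121), with that call held only without ago4-3 control replicate 2 (adjusted p = 0.0248, against 0.0712 to 0.141 without each other library). They were the 2 calls among 26 measured wall-loosening genes (median −0.10), where 0.806% of all genes tested were lower. GASA6, a gibberellin-regulated peptide that promotes germination, fell from 9.56 and 12.8 CPM to 3.62 and 4.04 (−1.54, adjusted p = 7.09e-04). It was the only call of 18 gibberellin genes (median 0.07), beside the same 0.806% over all genes. The endosperm and seed coat markers gave 0 calls of 4 measured with edgeR and 0 with DESeq2 (2 at an unadjusted p under 0.05 with either tool). Of these, EPR1, an extensin of the endosperm, was at 54.8 and 65.9 CPM in Col-0 and 42.6 and 15.4 in ago4-3 (−1.03, adjusted p = 0.113). The summed level of the 4 was 116.9 and 134.4 CPM in Col-0 and 100.1 and 67.2 in ago4-3, and its part in the fall of EXPA2 was not tested.

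Several genes of the drying response fell. Abscisic acid holds seeds dormant, and late embryogenesis abundant (LEA) proteins protect drying tissue. Of 28 measured LEA genes, 4 were lower, where 0.806% of all genes tested were, and 0 higher, 3 had a positive log2 fold change and the median was −0.32. M17 (AT2G41260), a glycine-rich LEA protein, was at 24.3 and 22.9 CPM in Col-0 and 5.28 and 2.31 in ago4-3, a log2 fold change of −2.57 ± 0.29 (edgeR adjusted p = 1.57e-04). The dehydrin RAB18 was at 65.0 and 74.9 CPM in Col-0 and 44.3 and 19.4 in ago4-3 (−1.12, adjusted p = 0.0485), where the ago4-3 libraries lie further apart than the gap between the genotypes. That call was lost with RLE scaling (adjusted p = 0.0514), upper-quartile scaling (0.0547) and DESeq2 (0.0746). LEA14 (−0.86) and ECP63 (−0.54) fell too. In ago4-2 on control medium, M17 was at 76.9 and 114.5 CPM (2.02 against Col-0, edgeR adjusted p = 7.25e-05). RAB18 was at 214.9 and 169.9 CPM there (1.46, adjusted p = 0.00266), so both were above Col-0. LEA14 (0.37) and ECP63 (0.26) did not pass in ago4-2. Of the 4 calls in ago4-3, that of M17 held with every library left out. RAB18 and ECP63 were called only without ago4-3 control replicate 1 (adjusted p = 8.33e-04 and 0.0438, against 0.162 to 0.422 without each other library), and LEA14 only without Col-0 control replicate 1 (0.0450, against 0.0524 to 0.0780).

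Of 19 measured osmotic, cold and salt genes, 3 were lower, where 0.806% of all genes tested were, and 0 higher, with a median of −0.33. RD29A (AT5G52310), a classic reporter of drought and cold, fell from 14.4 and 15.4 CPM to 7.16 and 7.03 (−1.07 ± 0.16, edgeR adjusted p = 0.00194). Its neighbour RD29B, which responds to abscisic acid, fell from 50.9 and 54.0 CPM to 37.0 and 30.5 (−0.63, adjusted p = 0.0185), a call that held only without ago4-3 control replicate 1 (0.0288, against 0.105 to 0.315 without each other library). LTP3, a lipid transfer protein, fell from 40.3 and 46.0 CPM to 16.7 and 14.7 (−1.45). Among 37 genes of abscisic acid synthesis, breakdown and signalling, the median was −0.06 and 16 had a positive log2 fold change. Of these 37, 2 were lower, where 0.806% of all genes tested were, and 0 higher. Both encode protein phosphatases of clade A, which hold the abscisic acid pathway off: HAI3 (8.20 and 9.77 CPM against 2.77 and 2.52; −1.75, adjusted p = 1.80e-04) and AHG1 (6.70 and 7.74 against 4.08 and 3.67; −0.88, adjusted p = 0.00836). The call of AHG1 was lost without replicate 2 of Col-0 (adjusted p = 0.108) or of ago4-3 (0.117). In ago4-2 on control medium, RD29A (−1.63), LTP3 (−1.37) and HAI3 (−0.73) were called lower than Col-0 as well. AHG1 was called higher there (0.69), and RD29B did not pass (0.17). In ago4-3, the 18 storage and oil body genes had 0 calls with edgeR (5 at an unadjusted p under 0.05, and 3 called by DESeq2). Their median was 0.36, with 11 at a positive log2 fold change.

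Of 11 dormancy and light-germination genes, 2 were lower, where 0.806% of all genes tested were, and 0 higher (median −0.24). AT4G18650, related to the dormancy gene DOG1, fell from 3.38 and 4.64 CPM to 0.567 and 0.630 (−2.73, edgeR adjusted p = 7.09e-04). The other call, AT2G33830 (−1.53, adjusted p = 0.0487), was lost with RLE scaling (0.0518), upper-quartile scaling (0.0562) and the fit of the 4 libraries alone (0.0902). Only the call of AT4G18650 held with each library left out. Of 11 measured heat shock genes, 4 were lower, all for small heat shock proteins, where 0.806% of all genes tested were, and 0 higher (median −0.91). HSP17.6A, for example, was at 9.52 and 15.4 CPM in Col-0 and 5.35 and 1.99 in ago4-3 (−1.70, adjusted p = 0.0391), and none of the 4 calls held with every library left out. The call of HSP17.6A held only without ago4-3 control replicate 1 (adjusted p = 0.0136, against 0.0653 to 0.407 without each other library), and it was lost with DESeq2 (0.0722). Of 7 flowering repressors of the FLC and MAF family, 2 were lower, where 0.806% of all genes tested were, and 0 higher (median −0.27). MAF4 (11.6 and 8.45 CPM against 4.47 and 2.99; −1.41) and MAF5 (8.12 and 5.80 against 2.73 and 1.84; −1.60), which lie side by side on chromosome 5, fell, while FLC, the best-known member of this family, was at 5.80 and 6.29 CPM in Col-0 and 7.30 and 8.92 in ago4-3 and did not pass (0.42, adjusted p = 0.365). Both MAF calls were lost without Col-0 control replicate 1 (adjusted p = 0.0609 for MAF4 and 0.0838 for MAF5), and that of MAF5 also without ago4-3 control replicate 2 (0.0709). The vacuolar protease DELTA-VPE, known from the seed coat, fell as well (−1.36, adjusted p = 0.00794), a call lost without Col-0 control replicate 2 (0.0903) or ago4-3 control replicate 1 (0.0734). With ESM1 it made up the calls among 14 measured genes of glucosinolate hydrolysis and vacuolar proteolysis (median −0.07), where 1.66% of all genes tested were called.

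The edgeR fit gave 0 calls for oil mobilisation (17 genes, median 0.00; 3 at an unadjusted p under 0.05 and 1 called by DESeq2). It gave 0 for the circadian clock (24 genes, median 0.05; 9 at an unadjusted p under 0.05 and 2 called by DESeq2). The shoot epidermis and stomatal markers also had 0 calls (8 genes, median −0.05; 2 at an unadjusted p under 0.05 and 0 called by DESeq2). Of the root and root hair markers, 1 of 8 was higher, PRP3, at 0.269 and 0.248 CPM in Col-0 and 1.06 and 1.15 in ago4-3 (2.06, adjusted p = 0.0141), called only without ago4-3 control replicate 1 among the fits with a library left out (0.0492, against 0.0956 to 0.175). Over all genes tested, 0.851% were higher. The summed level of the 8 root and root hair markers was 165.5 to 173.5 CPM over the 4 libraries.

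**Figure D3:**
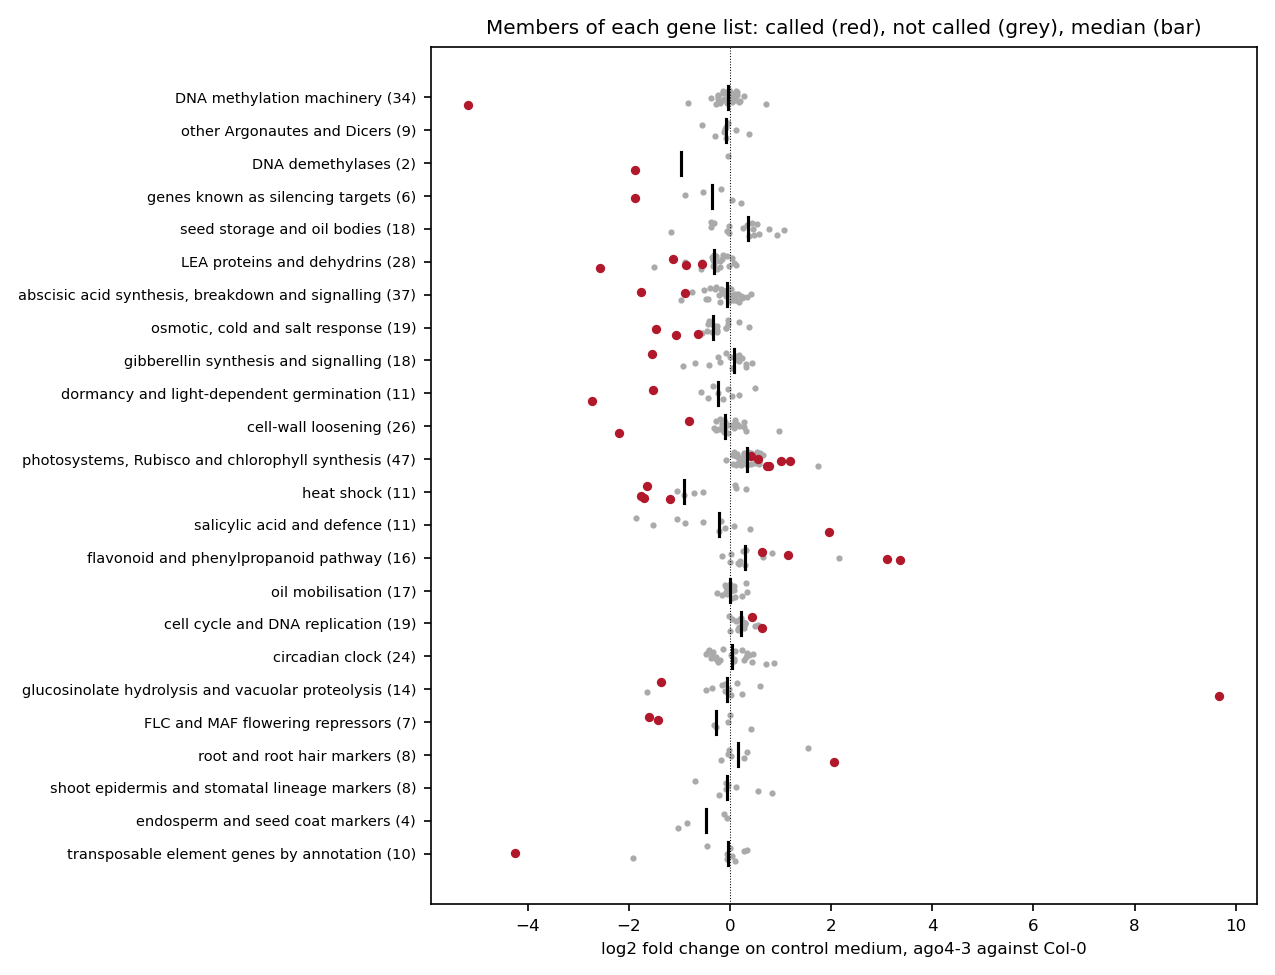
Change on the log2 scale, ago4-3 minus Col-0 (horizontal axis), for the measured members of each gene list, whose number stands in brackets; red points are called, grey points are not, and the bar is the list's median. LEA, osmotic and heat shock calls lie to the left and flavonoid and photosynthesis calls to the right.

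The changed genes were spread over the genome. Genes called with a log2 size of at least 2 were 0.368% of those tested on chromosome 1, 0.369% on chromosome 2, 0.460% on chromosome 3, 0.451% on chromosome 4 and 0.196% on chromosome 5, against 0.361% over all genes. Within 1 Mb of AGO4, 5 of 289 genes tested were called (1.73%), AGO4 included, which is near the 1.66% over all genes. AT2G27580, an A20/AN1 zinc finger gene 239.9 kb from AGO4, stood out among them, rising from 22.8 and 23.6 CPM to 85.1 and 75.9 (log2 fold change 1.80 ± 0.10, edgeR adjusted p = 5.26e-08), while ago4-2 was at 23.9 and 24.8 CPM. ENODL14 rose (0.67), and PAP12 (−0.44) and the membrane-bound NAC factor NTL8 (−1.24) fell, and none of these 3 calls held with any of the 4 libraries left out (adjusted p = 0.0665 to 0.508). The stretches from 8 to 9 Mb on chromosome 1, from 10 to 11 Mb on chromosome 3 and from 0 to 1 Mb on chromosome 4 held 4, 4 and 3 such large changes, and the first and second of these are where the copies described above lie.

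In 100 mM NaCl, in libraries not shared with the control comparison, ago4-3 differed from Col-0 in 96 higher and 115 lower genes (1.19% of those tested). Of the calls, 105 were shared in the same direction (55 higher and 50 lower), which is 35.7% of the 294 calls on control medium and 49.8% of the 211 in NaCl. Sharing went with size. Among rises of at least 2 on the log2 scale, 33 of 35 were called in both media, among those from 1 to 2, 14 of 29, and among smaller ones 8 of 87. For falls, the counts were 19 of 29, 22 of 56 and 9 of 58. A call in a single medium does not show a difference between the media, and the test of that difference called 4 genes (0.0225% of those tested).

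The 9 genes at 0 counts in Col-0 on control medium were at most at 0.173 CPM in Col-0 in NaCl and at least at 1.10 in ago4-3, and all 9 were called there too. ESM1 was at 0.751 and 1.04 CPM in Col-0 and 772.8 and 741.3 in ago4-3 (9.72, edgeR adjusted p = 7.89e-13). ROS1 was at 8.95 and 7.46 CPM in Col-0 and 0.778 and 0.755 in ago4-3 (−3.42, adjusted p = 6.98e-07), and the difference of this change from that on control medium did not pass (interaction log2 fold change −1.54, adjusted p = 0.149). LDOX (2.35), DFR (2.05), ICS1 (2.22), HAE (5.89) and EXPA2 (−1.70) also kept their calls and their directions. The LEA list had a median of 0.39 in NaCl, with 3 of 28 genes higher and 1 lower. The photosynthesis list had a median of −0.19, with 0 of 47 genes higher and 1 lower. Over all genes tested, 1.19% were called in NaCl. For organelle genes the median in NaCl was −0.10. Differences of these list medians between the media were not tested. M17 is the LEA gene for which the difference between the media passed. It was at 15.8 and 26.5 CPM in Col-0 and 27.5 and 27.0 in ago4-3 in NaCl (0.37, adjusted p = 0.576).

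**Figure D4:**
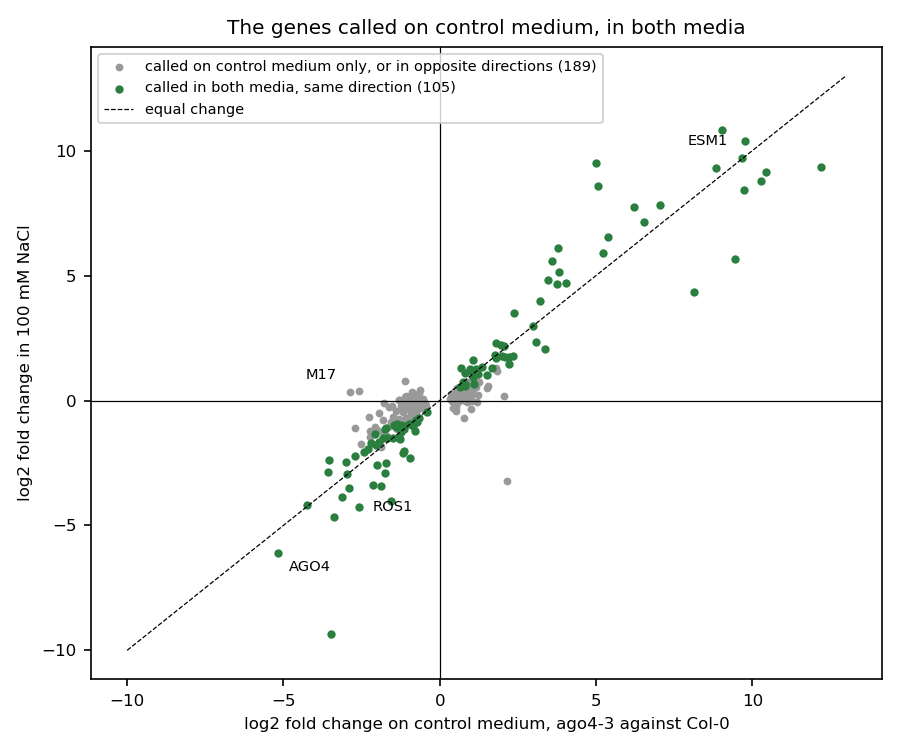
Change on the log2 scale, ago4-3 minus Col-0, on control medium (horizontal axis) and in 100 mM NaCl (vertical axis) for the 294 genes called on control medium. The 105 green points were called in the same direction in both media and hold nearly all large rises; the dashed line marks equal change, and M17 lies above it.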

How the data were processed

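Polyadenylated RNA of 12 libraries was sequenced, 2 in each of 6 groups (Col-0, ago4-2 and ago4-3, on control medium or in NaCl). The authors deposited 9 tables of comparisons, with raw counts per gene for 4 libraries in each. Per the file headers, the deposited tables also give a log2 fold change, a p-value and a false discovery rate per gene. The tools named in the submitters' processing notes are edgeR, DESeq, Picard and SAMtools, and the genome build is TAIR10. The aligner and the strand setting are not given in the sources used here. A further 36 columns of pseudo-counts were not used.

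The 17751 genes listed for all 12 libraries, counts of 0 included, were scaled by TMM. They were tested with the quasi-likelihood test of edgeR 4.0.16 (R 4.3.3) with 1 coefficient per group. Genes were called at a Benjamini-Hochberg adjusted p under 0.05. The fit over 12 libraries shares the estimate of the spread among groups. Alternatives were RLE and upper-quartile scaling, DESeq2 1.42.0, no organelle genes, no filter, at least 50 counts in at least 2 libraries, only the libraries compared, the replicate number as a block, and each library left out. Scripts were tested on simulated data. Of counts from 1 to 20, 72.3% to 87.7% per library were even; the cause was not tested. Floors (3 counts per library) cover counting error only.

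Named genes are AGO4, the 15 largest changes per direction (mean of at least 2 CPM in the higher group, libraries of the groups not overlapping, called in each of 4 fits without 1 library), up to 4 members of each of 25 gene lists by smallest adjusted p, called methylation genes, demethylases and silencing targets, and called genes within 1 Mb of AGO4. The text gives a selection. The comparison, its genes and the lists were chosen with earlier results of these data known. Positions and 250-base upstream windows are from the RefSeq TAIR10.1 genome and annotation. In the authors' deposited table, 702 genes are higher and 824 lower at a false discovery rate under 0.05, and 288 of the 294 calls made here are among them in the same direction.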

Additional observations from a re-analysis of the deposited data

Results flagged for a closer look

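For 4 genes the difference between ago4-3 and Col-0 itself differed between control medium and NaCl (edgeR interaction contrast, Benjamini-Hochberg adjusted over 17751 genes). M17 (AT2G41260), a LEA protein, was lower in ago4-3 on control medium and not in NaCl, with an interaction of 2.94 on the log2 scale (adjusted p = 0.0104). AT5G09570, annotated as a Cox19-like protein, was at 15.3 and 13.7 CPM in Col-0 and 12.3 and 10.3 in ago4-3 on control medium, and at 6.33 and 7.35 against 0.583 and 0.343 in NaCl. Its interaction was −3.56 (adjusted p = 5.16e-04). ILA (AT1G64790), a protein of the translation control pathway, went from 154.2 and 151.6 CPM in Col-0 to 201.7 and 190.9 in ago4-3 on control medium, and from 162.8 and 124.8 to 509.2 and 420.8 in NaCl. Its interaction was 1.33 (adjusted p = 0.0104). NUDT21 (AT1G73540), a nudix hydrolase, was higher in ago4-3 on control medium (5.55 and 5.22 CPM against 9.14 and 9.55) and lower in NaCl (9.47 and 9.05 against 5.54 and 5.73), with an interaction of −1.51 (adjusted p = 0.0395). NUDT21 was the 1 gene called in both media in opposite directions, but its call on control medium was lost with any of the 4 libraries left out (adjusted p = 0.0504 to 0.231). Apart from M17, these genes were named after their values were seen.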

How the results depend on the processing

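AGO4 was called lower in ago4-3 under each alternative run, at −5.07 to −5.29 on the log2 scale. DESeq2 called 262 genes higher, and a fit of only the 4 libraries of the contrast called 403 higher and 221 lower. With each of the 4 libraries left out in turn, 47 to 160 genes were higher and 43 to 146 lower. Calls shared with NaCl ranged from 60 to 87 with each of the 8 libraries left out. The 4 genes with an effect that differed between the media became 21 without organelle genes, 54 with DESeq2, 9 with only the 8 Col-0 and ago4-3 libraries, and 1 to 19 with each library left out. The cause was not tested. The same replicate numbers did not pair the samples, since only 2 of 15 correlations of deviations between groups (−0.45 to 0.26) exceeded 0.1. With the replicate number as a block, 121 genes were higher, 114 lower, 91 shared with NaCl and 3 differed between the media. Of 123 named genes other than AGO4, 0 turned direction in 12 alternatives where they were called. The 2 libraries a group limit the precision of every value, and genes near 0 CPM cannot show a fall at this depth.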

Other observations

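Further groups of genes outside the lists were noticed after their values were seen, and no test was made of them as groups. Other genes of glucosinolate synthesis were not counted, so no share can be set beside the 0.851% of all genes tested that were higher. From that pathway, 5 genes were picked because they were called higher in ago4-3 on control medium. They were CYP79B2 (53.9 and 58.0 CPM in Col-0, 85.7 and 110.9 in ago4-3; log2 fold change 0.81, edgeR adjusted p = 0.00241) and CYP79B3 (0.86), which turn tryptophan into the precursor of indole glucosinolates, SUR1 (0.38), which forms their thiol group, and the sulfotransferases SOT16 (0.48) and SOT17 (0.80), which complete the core. None of these 5 calls held with every library left out.

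ELIP1 and ELIP2, light-induced proteins that protect chloroplasts in greening seedlings, were among the most abundant rises. ELIP1 was at 274.1 and 305.0 CPM in Col-0 and 505.3 and 568.7 in ago4-3 (0.89, adjusted p = 0.00773), and ELIP2 at 161.0 and 174.4 against 314.2 and 350.4 (0.99, adjusted p = 0.00188). The call of ELIP2 was lost without Col-0 control replicate 1 (adjusted p = 0.0513), and that of ELIP1 held only without ago4-3 control replicate 1 (0.0228, against 0.0684 to 0.143 without each other library). In ago4-2 on control medium, ELIP1 was called higher than Col-0 as well (0.72), while ELIP2 did not pass (−0.31). The amino acid exporter genes UMAMIT20 (−1.70), UMAMIT25 (−2.41) and UMAMIT30 (−2.28) were lower in ago4-3. So were MLP31 (−3.13), AT1G14930 (−2.70) and AT1G14950 (−2.59), annotated as MLP or polyketide cyclase-like proteins. AGL102 (5.53 and 5.34 CPM against 20.2 and 26.4; 2.09) and AGL80 (1.81), MADS-box genes, were higher, while AGL67 (−2.04) and AGL94 (−1.37) were lower. The peptidase gene AT5G13520 rose from 43.4 and 36.4 CPM to 105.7 and 97.4 (1.34, adjusted p = 4.38e-06) and by 1.33 in NaCl. With each library left out in turn, the calls of AGL102, AGL67 and AT5G13520 held. Those of AGL80 and AGL94 held only without ago4-3 control replicate 1 (adjusted p = 0.0276 and 0.0396, against 0.0678 to 0.250 without each other library), that of UMAMIT20 held in none of the 4 fits (0.0884 to 0.337), and those of UMAMIT25, UMAMIT30, MLP31, AT1G14930 and AT1G14950 were each lost in at least 1 (highest adjusted p = 0.0554 to 0.128).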
